A study of Mus musculus with 6 samples.

Results

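The genes described here are 8 components of the renin-angiotensin system and of corticosteroid signalling in the mouse heart: *Agt*, *Ace*, *Agtr1a*, *Atp6ap2*, *Enpep*, *Nr3c1*, *Nr3c2* and *Hsd11b1*. They were chosen by name, each symbol matched 1 Ensembl identifier, and they make up 8 of the 54232 genes counted. RNA of the heart ventricle was sequenced from 6 wild-type C57BL/6J mice fed a western diet (WD). After 15 weeks of diet, 3 of them were needle-fed Tributyrin, a triglyceride that releases butyrate, at 5 g/kg of body weight for 3 weeks, and 3 were given vehicle, named PBS in the labels. The question put to these libraries was whether heart transcripts differ between WD + Tributyrin and WD + Vehicle mice. Mice on normal chow are not analysed here, so both groups share the diet and no value below measures its effect. The labels give neither the age nor the sex of each mouse, although the study used male and female animals, and *Ddx3y*, a Y-linked gene, had 1571 to 2559 counts in every library.

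In the renin-angiotensin system, renin cuts angiotensinogen (*Agt*) to angiotensin I, and angiotensin-converting enzyme (*Ace*) trims that to angiotensin II, which constricts vessels and promotes hypertrophy and fibrosis through the type 1 receptor (*Agtr1a*). Aminopeptidase A (*Enpep*) degrades angiotensin II, and *Atp6ap2*, the (pro)renin receptor, is also an accessory subunit of the vacuolar proton pump. The glucocorticoid receptor (*Nr3c1*) and the mineralocorticoid receptor (*Nr3c2*) are hormone-activated transcription factors. Cortisol and corticosterone bind both, aldosterone binds mainly the second, and *Hsd11b1* encodes the enzyme that regenerates active glucocorticoid inside cells.

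Library depth ran from 20369746 to 32734485 counts. Ventricular cardiomyocyte markers summed to 43803 to 46167 CPM (counts scaled to a common library size) with vehicle and 44629 to 47378 CPM with Tributyrin. Of 8 such markers 6 were higher with Tributyrin, 3 at an unadjusted p under 0.05 (*Tnnt2*, *Tnni3* and *Pln*, beside 1.97% of all genes), and the groups did not overlap for *Tnni3* and *Pln* (4.34% of all genes). Their part in the results below was not tested. The libraries of vehicle mice 1 and 2 held more atrial transcripts than the rest, with *Myl7*, an atrial myosin light chain, at 66.4 and 56.4 CPM against 4.21 to 18.3 in the other 4. Of 6 atrial markers 6 were lower with Tributyrin, 4 at an unadjusted edgeR p under 0.05 (beside 2.28% of all genes). Their median log2 fold change was -1.90, and the groups did not overlap for 1 of them (4.61% of all genes). They summed to 64.5 to 193 CPM with vehicle and 40.3 to 74.3 with Tributyrin. No alternative left out both vehicle mice 1 and 2. The library of Tributyrin mouse 3 was shifted against long genes. Protein-coding genes were classed by the length of their longest transcript. Relative to each gene's mean over the 6 libraries, the median log2 CPM of Tributyrin mouse 3 was -0.14 for 1998 genes over 6000 bases. It was 0.12 for 2451 genes under 2000 bases, a gap of -0.27. In the others the gap lay between -0.036 and 0.15. Of 16 transcripts known to respond to corticoids, 5 were lowest in replicate 1 of each group and 2 were highest there, as described with the corticoid receptors. The share of all genes with either pattern was not counted. Values without some of the libraries named here are given beside some of the results below, not all.

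In the main test, by edgeR, no gene differed between the groups at a false discovery rate (FDR) of 10%. Of 14133 genes tested with edgeR's quasi-likelihood test, 0 passed at 10% (0% called) and 0 at 5% (0% called). By edgeR, 600 had an unadjusted p under 0.05 (4.25% called), and the smallest adjusted p was 0.999. DESeq2, which tested 25578 genes, placed 11 past 10%. All 8 genes passed the filter on low counts, 4 were higher and 4 lower with Tributyrin, and their median log2 fold change was -0.020, beside -0.00129 over all genes tested. *Agtr1a* was the 1 gene of the 8 with an unadjusted p under 0.05, and also the 1 gene of the 8 whose groups did not overlap, where 8.94% of all genes tested did not (4.61% with Tributyrin below). Of 8 genes, either background share amounts to less than 1 gene. Adjusted p was 0.999 for each of the 8, by edgeR with Benjamini-Hochberg adjustment over all genes tested.

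**Figure D1:**
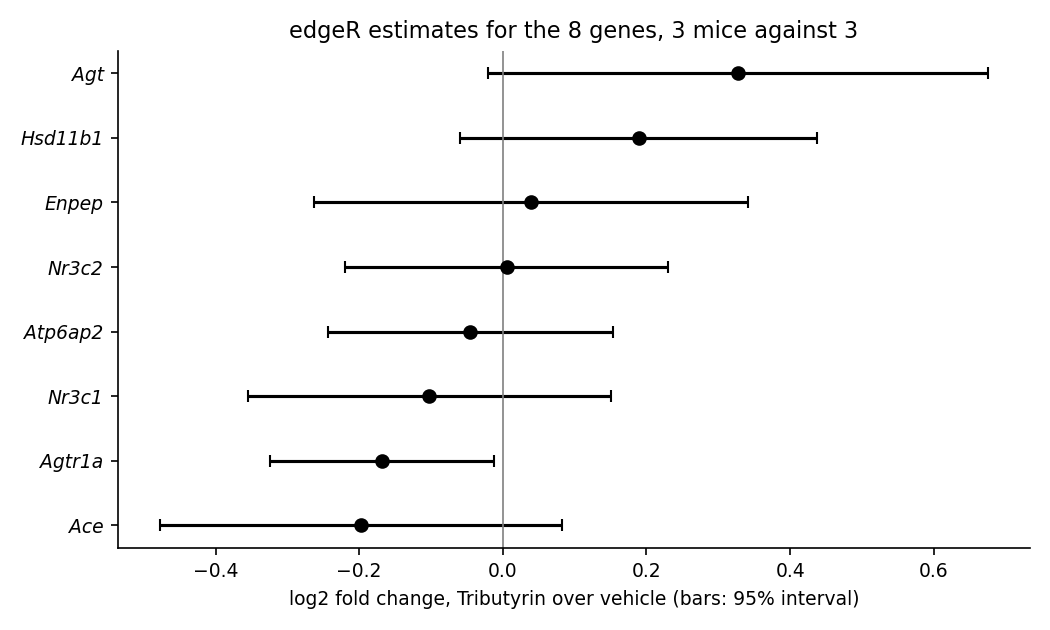
edgeR estimates of the log2 fold change (x axis, Tributyrin over vehicle) for each of the 8 genes (y axis), with bars for the 95% interval, 3 mice against 3. The estimates run from -0.20 for *Ace* to 0.33 for *Agt*, and the interval of *Agtr1a* is the only 1 of the 8 that does not reach 0.

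*Agt* encodes angiotensinogen, the substrate of the system, made mostly by liver and also by fat, brain and heart. It lies on the minus strand of chromosome 8 at 124556534-124569706 (GRCm38, as are all positions here). The coding stretch that carries the hormone is shown because every later step of the system acts on it. The codons of angiotensin I are in capitals, from coding base 88 to 117 in exon 2 (chr8:124564438-124564491, minus strand).
Agt: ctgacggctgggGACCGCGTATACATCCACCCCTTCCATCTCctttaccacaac

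*Agt* had the lowest CPM of the 8 genes. The level, in CPM scaled by TMM (trimmed mean of M values), was 4.58, 5.39 and 4.68 in vehicle mice 1 to 3, from 116, 183 and 99 counts. It was 6.66, 5.02 and 6.83 in Tributyrin mice 1 to 3, from 187, 144 and 157 counts. Tributyrin mice 1 and 3 lay above all vehicle mice, Tributyrin mouse 2 lay between vehicle mice, and the groups overlapped. The mean was 4.89 ± 0.440 with vehicle and 6.17 ± 0.999 with Tributyrin (SD, n = 3 each), a difference of 26.3%. The log2 fold change was 0.33 (SE 0.157, 95% interval -0.020 to 0.68), with an unadjusted edgeR p of 0.0621 and an adjusted p of 0.999. A difference at least this large, in either direction, was seen in 10.8% of all genes tested. Counting error alone was 7.31% to 10.1% per library, so this gene is the least precisely counted of the 8. Without Tributyrin mouse 2 the log2 fold change was 0.46, and without Tributyrin mouse 3 it was 0.25, so that its size rests on single mice while its sign did not turn in any of the 16 alternatives run.

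*Ren1*, encoding renin, had 0 counts in each of the 6 libraries, and 0 of 160100223 counts allows a level of up to 0.0187 CPM over all of them. Its receptor *Atp6ap2*, on the plus strand of chromosome X at 12587801-12617049, was present throughout. The CPM was 17.5, 16.8 and 15.8 in the vehicle mice and 16.4, 16.0 and 16.1 in the Tributyrin mice. These were the steadiest values of the 8 genes, with a ratio of 1.11 between the highest and the lowest library, and the Tributyrin mice lay within the range of the vehicle mice. Its log2 fold change was -0.045 (SE 0.0894, 95% interval -0.24 to 0.15), and the interval leaves room for anything from a fold of 0.845 to 1.11. On the scale of TPM, transcripts scaled by exonic length and library total but not by TMM, the groups of this gene did not overlap, at 15.2, 15.7 and 14.8 against 13.9, 14.3 and 12.6. With library size alone in place of TMM the median log2 fold change of all genes tested was -0.074 and that of *Atp6ap2* -0.12, so the separation depends on the scaling. The share of all genes whose groups did not overlap in TPM was not counted.

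*Ace*, on the plus strand of chromosome 11 at 105967945-105989964, encodes a zinc metallopeptidase of the endothelial surface with a pair of catalytic sites. *Enpep* encodes a zinc metallopeptidase too, which trims angiotensin II from its first residue. The shared chemistry is visible in the coding sequence, where the codons of the zinc-binding motif, in capitals below, occur at 2 places in *Ace* and 1 in *Enpep*. The search was of the whole translated coding sequence of each gene for this motif. The sites lie at chr11:105972898-105972936 (exon 8) and chr11:105985082-105985120 (exon 20) for *Ace*, and for *Enpep* across an intron at chr3:129309127-129309798 (minus strand, exons 5 and 6).
Ace site 1: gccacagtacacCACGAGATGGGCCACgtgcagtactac
Ace site 2: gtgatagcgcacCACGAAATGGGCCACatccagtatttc
Enpep site 1: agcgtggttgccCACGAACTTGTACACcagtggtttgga

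*Ace* was at 51.6, 66.7 and 65.3 CPM in the vehicle mice. In the Tributyrin mice it was at 44.3, 56.7 and 59.3 CPM. Mouse 1 was the lowest of each group, and vehicle mouse 1 lay below Tributyrin mice 2 and 3, so the groups overlapped. The mean was 61.2 ± 8.37 and 53.4 ± 8.01 CPM (SD, n = 3), a difference of -12.7%, with a log2 fold change of -0.20 (SE 0.126, 95% interval -0.48 to 0.082) and an unadjusted edgeR p of 0.147. Counting error was 2.10% to 2.84% per library, well under the spread between mice of 13.7% and 15.0%. Leaving out Tributyrin mouse 1 took the log2 fold change to -0.073 and leaving out vehicle mouse 1 to -0.30 (unadjusted p 0.0370, edgeR). With any other single mouse left out it lay between -0.28 (Tributyrin mouse 3) and -0.13 (vehicle mouse 2), so its size rests on single mice. The unadjusted p was 0.0356 with no filter on low counts, and the adjusted p was 0.620 or more in each alternative.

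Of 8 endothelial markers, all tested, 5 were higher and 3 lower, with 0 of 8 at an unadjusted p under 0.05 (4.25% of all genes) and a summed level of 701 to 726 CPM with vehicle and 674 to 744 with Tributyrin. *Ace* divided by that sum was 0.0733, 0.0919 and 0.0932 in the vehicle mice and 0.0657, 0.0761 and 0.0829 in the Tributyrin mice. The log2 difference was the same as for *Ace* itself, -0.20, with an exact two-sided permutation p of 0.3 (0.375 adjusted over the 10 ratios tested here). With 3 mice against 3 the smallest p this test can give is 0.1, so that no such ratio can pass 0.05. In bulk ventricle, fewer cells of a type and less RNA per cell cannot be told apart, here or for any gene below.

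*Enpep*, on the minus strand of chromosome 3 at 129269175-129332720, is made in pericytes of the heart as well as in kidney and gut. It was at 13.7, 10.7 and 11.2 CPM in the vehicle mice and at 11.2, 14.1 and 11.1 CPM in the Tributyrin mice. A single high mouse stood out in each group, vehicle mouse 1 and Tributyrin mouse 2, and the other 4 lay close together. For *Enpep* the log2 fold change was 0.039 (SE 0.136, 95% interval -0.26 to 0.34), and its sign turned without vehicle mouse 2 (-0.035) or without Tributyrin mouse 2 (-0.082). Relative to the summed pericyte markers, of which 0 of 8 had an unadjusted p under 0.05, the log2 difference was -0.017 with an exact permutation p of 0.8.

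**Figure D2:**
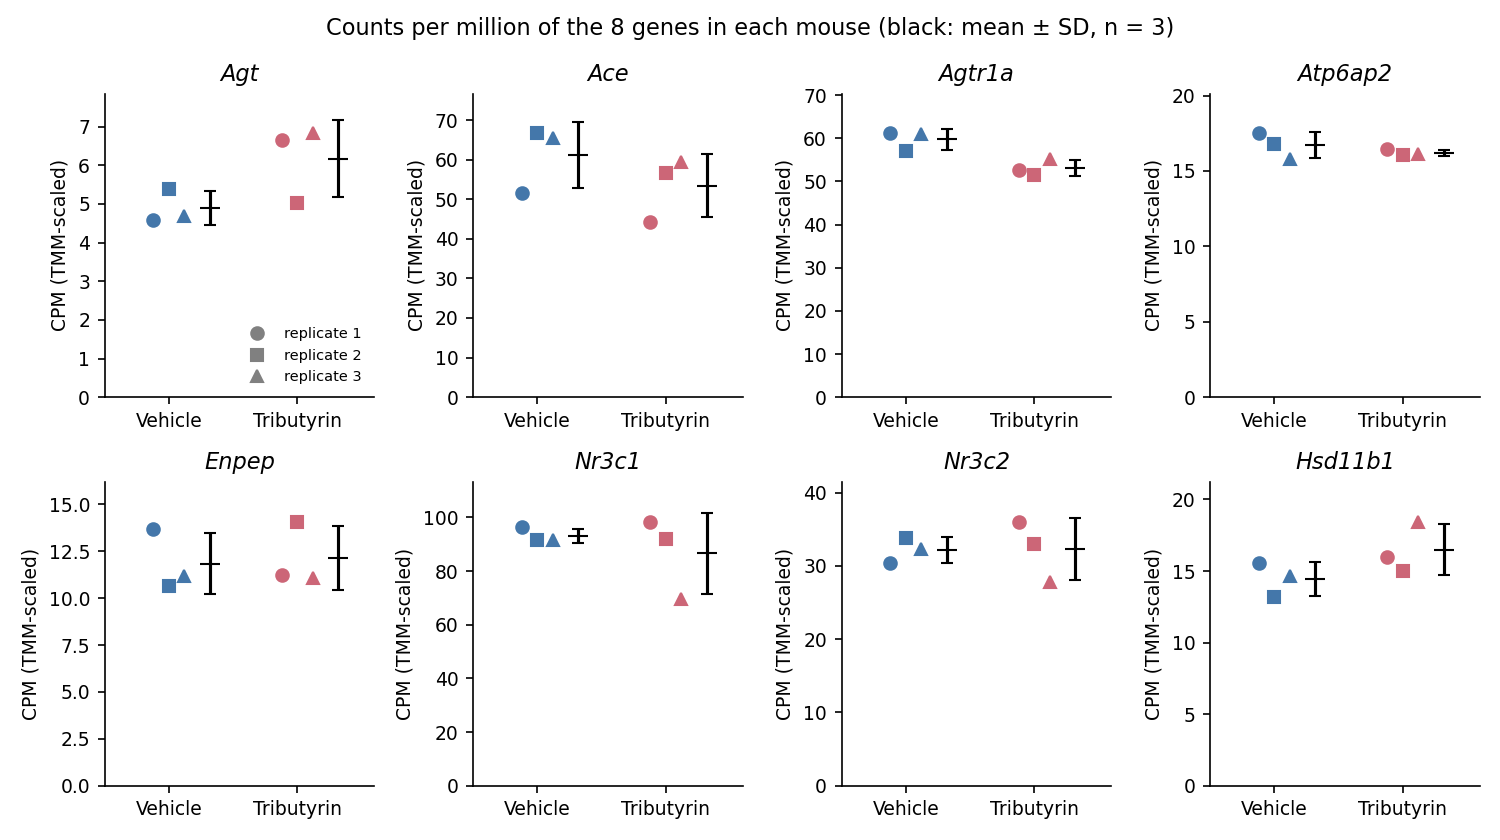
CPM scaled by TMM (y axis, each panel from 0) of the 8 genes in each of the 6 mice, by group (x axis), with black bars for the mean and SD of 3 mice and marker shapes for the replicate number. *Agtr1a* is the only panel in which the groups do not overlap, and Tributyrin mouse 3 (triangle) lies alone at the bottom for *Nr3c1* and at the top for *Hsd11b1*.

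*Agtr1a* encodes the type 1 angiotensin II receptor, a G protein-coupled receptor of vascular mural cells, fibroblasts and cardiomyocytes, and lies on the plus strand of chromosome 13 at 30336441-30382867. Mice carry a second copy, *Agtr1b* on chromosome 3, whose coding sequence is 90.8% identical and differs at 99 of 1080 bases. *Agtr1b* had 0 counts in every library. The copies are told apart by stretches such as the following, the 60 coding bases (964 to 1023) where they differ most, with the 13 differing bases in capitals, at chr13:30381917-30381976 (plus strand, exon 3) and chr3:20315418-20315477 (minus strand, exon 2).
Agtr1a: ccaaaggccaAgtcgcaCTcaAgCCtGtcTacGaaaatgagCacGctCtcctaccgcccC
Agtr1b: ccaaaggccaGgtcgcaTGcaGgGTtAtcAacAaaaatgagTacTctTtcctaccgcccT

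Of all 50-base windows in *Agtr1a* transcripts, 1.27% are shared with transcripts of other genes, *Agtr1b* among them, so nearly all reads of this length identify the gene. It was at 61.2, 57.0 and 60.9 CPM in the vehicle mice, from 1548, 1935 and 1288 counts. In the Tributyrin mice it was at 52.5, 51.6 and 55.3 CPM, from 1476, 1479 and 1270 counts. Every Tributyrin mouse lay below every vehicle mouse.

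The mean of *Agtr1a* was 59.7 ± 2.35 CPM with vehicle and 53.1 ± 1.92 with Tributyrin (SD, n = 3), a difference of -11.0%. This is a log2 fold change of -0.17 (SE 0.0702, 95% interval -0.32 to -0.012), with an unadjusted edgeR p of 0.0369, in place 442 of 14133, and an adjusted p of 0.999. Over all genes, 2.28% had an unadjusted p under 0.05 in this direction and 1.97% in the other. The sign held in all 16 alternatives, between -0.24 and -0.14, but the unadjusted p was 0.133 without vehicle mouse 1, 0.117 without vehicle mouse 3, 0.108 without Tributyrin mouse 1, 0.0707 without Tributyrin mouse 2, 0.238 without both mice 1, 0.0807 with an atrial score as covariate, 0.0776 with no filter on low counts and 0.0578 with DESeq2. Without Tributyrin mouse 3 the log2 fold change was -0.20.

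The receptor was also set against markers of the mural cells that carry it. Of 8 pericyte markers 4 were higher and 4 lower, and they summed to 1116 to 1150 CPM with vehicle and 1142 to 1227 with Tributyrin. *Agtr1a* divided by that sum was 0.0532, 0.0511 and 0.0533 with vehicle and 0.0450, 0.0420 and 0.0484 with Tributyrin. The groups did not overlap, with a log2 difference of -0.22 and an exact permutation p of 0.1, the smallest possible, which was 0.375 after adjustment over 10 ratios. Its largest member was *Rgs5*, at 471 to 577 CPM and 262 TPM, which is also a regulator of the signalling of this receptor. *Rgs5* was higher by 0.14 on the log2 scale, while *Pdgfrb*, a defining pericyte marker named after its value was seen, was at -0.19 (unadjusted edgeR p 0.0608), near the value of *Agtr1a* itself, so the difference from the sum depends on which marker is used. Smooth muscle markers were not level, with 5 of 5 higher and 3 of 5 at an unadjusted p under 0.05 (*Myh11*, *Cnn1* and *Lmod1*, beside 1.97% of all genes in that direction), at 134 to 193 CPM in sum with vehicle and 114 to 235 with Tributyrin. Fibroblast markers summed to 2325 to 2443 and 2067 to 2611 CPM, with 2 of 8 at an unadjusted p under 0.05, both lower (*Lum* and *Col1a1*, beside 2.28% of all genes in that direction). The part of these cells in the value of *Agtr1a* was not tested.

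The 20 genes of AT1 receptor signalling were all tested, 9 were higher and 11 lower, and 0 passed an FDR of 10% (edgeR). Their median log2 fold change was -0.023. An unadjusted p under 0.05 was found for 2 of them, both higher (1.97% of all genes), and the groups did not overlap for *Rgs4* above (4.34% of all genes) and *Arrb1* below (4.61%). The 2 were *Rgs4*, at 13.0, 13.1 and 15.0 CPM with vehicle and 16.2, 15.6 and 15.9 with Tributyrin, and *Rgs2*, at 37.3, 27.8 and 32.8 against 48.0, 34.2 and 38.9 CPM. Both encode proteins that shut off the G proteins to which the receptor couples. Their log2 fold changes were 0.22 and 0.31 with unadjusted p of 0.0435 and 0.0460, and adjusted p of 0.999 each by edgeR. *Rgs5* and *Gna12*, the latter a G protein alpha subunit at 113 TPM, had the highest levels of the list, with log2 fold changes of 0.14 and 0.051.

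The list of 21 further genes of the renin-angiotensin system was made up mostly of peptidases with many substrates and of genes at or near 0. *Ren1*, *Agtr1b*, *Mrgprd*, a receptor of shortened angiotensins, and *Ctsg*, a protease of neutrophils, had 0 counts in all 6 libraries. *Agtr2*, the type 2 receptor, had 0 to 5 counts, and *Klk1*, a kallikrein, had 8 counts in vehicle mouse 1 and 0 in the other 5. *Mas1*, the receptor of angiotensin-(1-7), had 12 to 23 counts. These 3 were named after their values were seen. Mast cell markers, among them the chymase genes *Cma1* and *Mcpt4* whose products also form angiotensin II, summed to 7.10 to 9.25 CPM with vehicle and 6.69 to 10.6 with Tributyrin. Of 15 tested, 6 were higher and 9 lower, with 0 at an unadjusted p under 0.05 and a median log2 fold change of -0.032. The highest levels were of the lysosomal proteases *Ctsd* at 512 TPM and *Ctsa* at 48.8 TPM.

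The glucocorticoid receptor gene *Nr3c1* lies on the minus strand of chromosome 18 at 39410545-39519421 and was the most abundant of the 8 genes in CPM. It was at 96.3, 91.5 and 91.4 CPM in the vehicle mice. In the Tributyrin mice it was at 98.4, 91.9 and 69.5 CPM. The vehicle mice and Tributyrin mice 1 and 2 lay close together, and Tributyrin mouse 3 was below all of them.

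The coefficient of variation of *Nr3c1* was 2.98% with vehicle and 17.5% with Tributyrin, where counting error was 1.79% or more per library. The log2 fold change was -0.10 (SE 0.114, 95% interval -0.36 to 0.15), with an unadjusted edgeR p of 0.389. Without Tributyrin mouse 3 it was 0.035, so the sign of the mean rests on that library. In TPM the groups did not overlap, at 28.5 to 29.2 with vehicle and 18.6 to 28.3 with Tributyrin, which again depends on the scaling. *Atp6ap2* and *Agtr1a* were also apart in TPM, both with Tributyrin below, and the share over all genes was not counted on that scale.

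*Nr3c2*, the mineralocorticoid receptor gene on the plus strand of chromosome 8 at 76899442-77245012, had a like pattern at a lower level. It was at 30.4, 33.9 and 32.3 CPM in the vehicle mice and at 36.1, 33.1 and 27.8 CPM in the Tributyrin mice. Tributyrin mouse 1 was the highest and Tributyrin mouse 3 the lowest of the 6, for both receptors. Its log2 fold change was 0.0054 (SE 0.101, 95% interval -0.22 to 0.23), and without Tributyrin mouse 3 it was 0.10.

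*Nr3c1* and *Nr3c2* have exonic lengths of 7684 and 6474 bases, the longest of the 8 genes, and the library of Tributyrin mouse 3 had low values for long genes in general. In that library *Nr3c1* was at -0.36 and *Nr3c2* at -0.21 on the log2 scale relative to their means, below the median of -0.14 for genes over 6000 bases. That class was set by the longest transcript, which is 6436 bases for *Nr3c1* and 5916 for *Nr3c2*, so *Nr3c2* falls outside it. The part of gene length in these values was not tested.

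The ratio of the receptors does not depend on library scaling. *Nr3c1* over *Nr3c2*, in TPM, was 2.67, 2.28 and 2.39 with vehicle and 2.30, 2.34 and 2.11 with Tributyrin. The log2 difference was -0.12 with an exact permutation p of 0.3 (0.375 adjusted over 10 ratios), and the groups overlapped. The coding sequences are 51.4% identical over their alignment and 80% in the most similar window of 150 bases, and 0.0643% of the 50-base windows of *Nr3c1* occur in other genes.

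*Hsd11b1* encodes 11-beta-hydroxysteroid dehydrogenase type 1 and lies on the minus strand of chromosome 1 at 193221634-193264075. It was at 15.6, 13.2 and 14.6 CPM in the vehicle mice and at 16.0, 15.0 and 18.5 CPM in the Tributyrin mice. Tributyrin mouse 3 was the highest and vehicle mouse 2 the lowest, and Tributyrin mouse 2 lay below vehicle mouse 1. The mean was 14.5 ± 1.21 against 16.5 ± 1.78 CPM (SD, n = 3), with a log2 fold change of 0.19 (SE 0.112, 95% interval -0.059 to 0.44) and an unadjusted edgeR p of 0.121. It was 0.10 without Tributyrin mouse 3 and 0.12 without vehicle mouse 2. The gene *Lamb3* lies on the opposite strand and had up to 569 counts in a library, but no exons of the pair overlap.

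*H6pd* supplies the cofactor with which the enzyme works as a reductase. The TPM ratio of *Hsd11b1* to *H6pd* was 0.414, 0.325 and 0.379 with vehicle and 0.451, 0.358 and 0.495 with Tributyrin, and the groups overlapped (log2 difference 0.22, exact permutation p 0.3). The ratio of *Nr3c1* to *Hsd11b1* was 3.42, 3.85 and 3.46 with vehicle and 3.41, 3.39 and 2.09 with Tributyrin. All 3 Tributyrin mice lay below the vehicle mice, Tributyrin mice 1 and 2 by little, with a log2 difference of -0.31 and an exact permutation p of 0.1 (adjusted 0.375). Without Tributyrin mouse 3 that log2 difference was -0.071.

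*Hsd11b2*, which inactivates glucocorticoid in aldosterone target cells such as those of the kidney, had 1 to 3 counts per library. *Cyp21a1*, *Cyp11b1* and *Cyp11b2*, which carry out late steps of corticosteroid synthesis in the adrenal gland, had 0 counts in every library. Of the 10 corticosteroid enzyme genes 4 were tested, with 2 higher, 2 lower, 0 at an unadjusted p under 0.05 and a median log2 fold change of 0.081. *H6pd* and *Cbr1*, a carbonyl reductase, had the highest levels, at 20.9 and 20.5 TPM. Of the sex steroid receptors shown, *Esr1* was at 0.0969 TPM with a log2 fold change of -0.026, and *Pgr* and *Esr2* were too low to test.

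*Agt* and *Hsd11b1* are also expressed by fibroblasts and adipocytes. *Agt* divided by the summed fibroblast markers gave a log2 difference of 0.38 (exact permutation p 0.4), and *Hsd11b1* a log2 difference of 0.24 (exact permutation p 0.3). Divided by the summed adipocyte markers the log2 differences were 0.39 and 0.25 (exact permutation p 0.3 each). That last sum is mostly *Cidea*, which heart muscle also expresses, and *Adipoq*, which defines fat cells, had 0 to 16 counts. The part of fat cells in these values was not tested.

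Among 16 corticoid-responsive genes the ratio of the highest to the lowest library ran from 1.22 to 10.3, above that of *Nr3c1* for 9 and not above it for 7. *Fkbp5*, a co-chaperone that lowers hormone binding by the receptor, was at 35.7, 70.3 and 51.2 CPM with vehicle and 21.8, 52.3 and 103.2 with Tributyrin. *Zbtb16*, a transcription factor gene, was at 24.2, 117 and 177 CPM with vehicle and 17.2, 123 and 156 with Tributyrin. *Mt2*, a metallothionein gene, was at 1.86, 2.68 and 2.79 CPM with vehicle and 0.569, 3.49 and 4.35 with Tributyrin. In all 3 genes, which were named after their values were seen, replicate 1 was the lowest mouse of its group. This was so in both groups for 5 of the 16 genes, while replicate 1 was the highest mouse in both groups for 2 of the 16 (*Ddit4* and *Nfkbia*). The share of all genes with either pattern was not counted, so these counts have no background to be read against.

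The highest library was 4.74 times the lowest for *Fkbp5*, 10.3 times for *Zbtb16* and 7.64 times for *Mt2*, against 1.42 for *Nr3c1*, 1.30 for *Nr3c2* and 1.40 for *Hsd11b1*. Tributyrin mouse 3 had the highest *Fkbp5*, *Mt2* and *Hsd11b1* and the lowest *Nr3c1* and *Nr3c2*. Of the 16 corticoid-responsive genes, it was also the highest for *Tsc22d3*, *Dusp1*, *Mt1*, *Lcn2* and *Angptl4*. It was not the highest for *Zbtb16*, *Per1*, *Sgk1*, *Klf9*, *Errfi1*, *Ddit4*, *Cdkn1a*, *Pdk4* or *Nfkbia*. The part of gene length or of any other property of that library in these values was not tested. Of the 16 corticoid-responsive genes, all tested, 12 were higher and 4 lower with Tributyrin, with a median log2 fold change of 0.094 beside -0.00129 over all genes and 49.6% of all genes above 0. Here 0 passed an FDR of 10% (edgeR) and 1 of 16 had an unadjusted p under 0.05, beside 1.97% of all genes in that direction and 4.25% in either. This was *Lcn2*, encoding a lipocalin that mineralocorticoids induce, at 5.89, 4.27 and 3.83 CPM with vehicle and 7.15, 5.44 and 8.92 with Tributyrin. Its log2 fold change was 0.61 (95% interval 0.15 to 1.08, unadjusted p 0.0148, adjusted p 0.999 by edgeR), and the groups overlapped. *Pdk4* at 318 TPM and *Mt1* at 158 TPM had the highest levels.

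**Figure D3:**
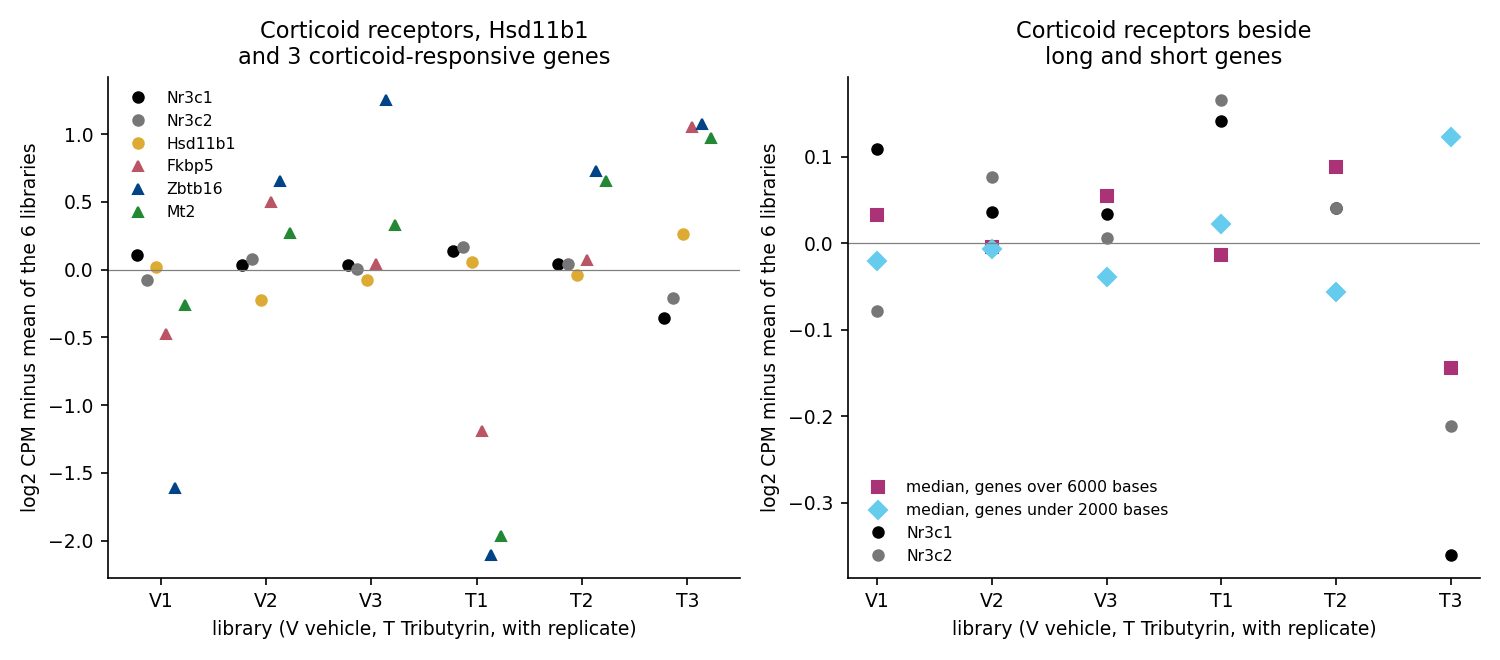
Log2 CPM minus the mean of the 6 libraries (y axes) in each mouse (x axes). The left panel shows *Nr3c1*, *Nr3c2* and *Hsd11b1* (circles) with *Fkbp5*, *Zbtb16* and *Mt2* (triangles), which are lowest in replicate 1 of each group, and the right panel shows both receptors with the medians of long and short protein-coding genes, where Tributyrin mouse 3 has the lowest value for both receptors and for long genes.

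The 18 genes for receptor chaperones and coregulators, which hold the receptors in a form that binds hormone or link them to transcription, were all tested. Of these 7 were higher and 11 lower, 0 had an unadjusted p under 0.05 and the median log2 fold change was -0.018, with a range from -0.099 to 0.16. The chaperones *Hsp90ab1* at 867 TPM and *Hspa8* at 384 TPM had the highest levels, and *Fkbp5* belongs to this list too.

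Levels can be compared between genes only per length, so counts were divided by exonic length and expressed as TPM. Means over the 6 mice (± SD) were 46.6 ± 5.38 for *Agtr1a*, 26.9 ± 4.13 for *Nr3c1*, 25.0 ± 4.86 for *Ace*, 14.4 ± 1.10 for *Atp6ap2*, 11.5 ± 1.49 for *Nr3c2*, 8.30 ± 0.425 for *Hsd11b1*, 6.66 ± 0.866 for *Agt* and 5.85 ± 0.821 for *Enpep*. The type 1 receptor gene thus stood above its ligand's precursor and above the enzymes on either side of angiotensin II. In rank they ran from the 93.8th percentile of TPM among genes with at least 1 count (*Agtr1a*) to the 70.8th (*Enpep*).

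Of the 7 neighbouring pairs in that order, 4 kept their order in 6 of 6 libraries: *Agtr1a* over *Nr3c1* (mean ratio 1.74, range 1.47 to 2.19), *Ace* over *Atp6ap2* (1.71, 1.33 to 2.05), *Atp6ap2* over *Nr3c2* (1.27, up to 1.43) and *Hsd11b1* over *Agt* (1.25, 1.07 to 1.51). Each had an exact sign-flip permutation p of 0.0312, the smallest that 6 libraries allow, and 0.0547 after adjustment over the 7 pairs. The order was taken from the means of these same 6 libraries, so the p-values are not an independent test of it. They also do not cover error in the lengths, which are the same in every library. *Nr3c1* and *Ace* did not differ beyond their spread (ratio 1.08, 0.807 to 1.53, *Nr3c1* higher in 3 of 6), and nor did *Agt* and *Enpep* (1.14, 0.832 to 1.53, *Agt* higher in 4 of 6). *Nr3c2* exceeded *Hsd11b1* in 5 of 6 (ratio 1.37), but this order depends on the length used. The exons of *Hsd11b1* span 4251 bases in union and 1978 in its longest transcript, and with the latter *Hsd11b1* was at 15.2 TPM, above *Nr3c2* in all 6 libraries.

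**Figure D4:**
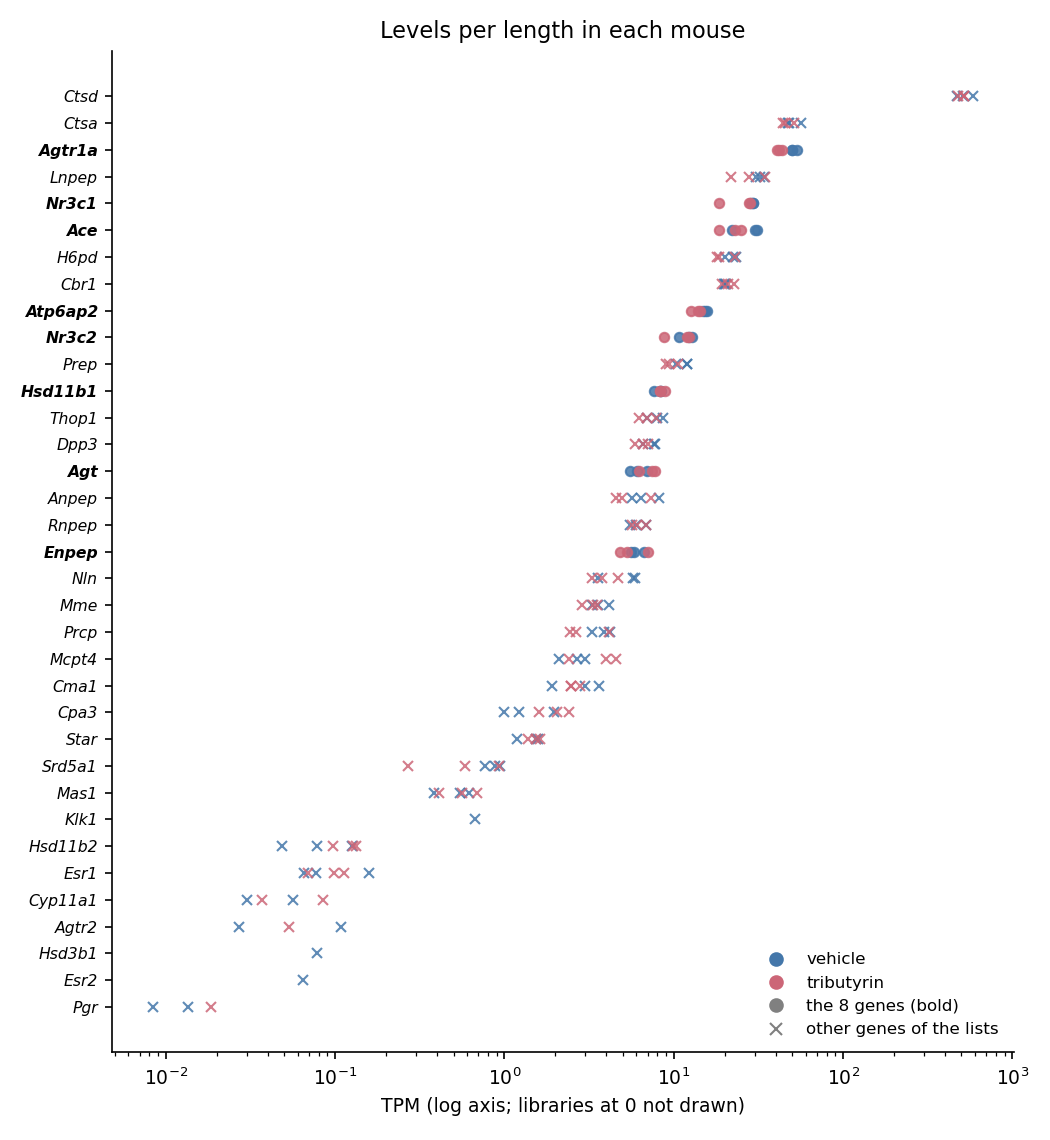
TPM on a log axis (x) of the 8 genes (circles, bold names) and of the other renin-angiotensin, corticosteroid enzyme and steroid receptor genes (crosses) on the y axis, 1 mark per mouse, with libraries at 0 not drawn. *Agtr1a* lies above the other 7 genes, while *Hsd11b2*, *Agtr2*, *Esr2* and *Pgr* lie near or below 0.1 TPM.

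The 8 genes did not share a pattern over the 6 mice. By the root mean square difference of log2 CPM centred on each gene's mean, the closest pairs were *Agtr1a* with *Atp6ap2* (0.0899) and *Nr3c1* with *Nr3c2* (0.10), and the farthest was *Agt* with *Ace* (0.351). Among 11409 genes of sufficient level, those most like each of the 8 were *Enoph1* and *Zfp14* for *Agt* (0.0646 and 0.0806), *Vim* and *Npdc1* for *Ace* (0.0317 and 0.0345), *Smarcb1* and *Arl15* for *Agtr1a* (0.0303 and 0.0310), and *Trim12c* and *Tmem87b* for *Atp6ap2* (0.0162 and 0.0190). They were *Kbtbd11* and *Fez1* for *Enpep* (0.0277 and 0.0438), *Gpam* and *1110002E22Rik* for *Nr3c1* (0.0359 and 0.0368), *Ctsc* and *Hbp1* for *Nr3c2* (0.0272 and 0.0336), and *Pxdc1* and *Ptrh2* for *Hsd11b1* (0.0243 and 0.0307). The median distance of all genes compared ran from 0.127 for *Atp6ap2* to 0.257 for *Agt*. The 6 points share their libraries, and with so few of them the nearest genes are given as a description.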

How the data were processed

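Stranded mRNA of 6 heart ventricles was sequenced by the authors as single 50-base reads. Per the labels, reads were trimmed with cutadapt 1.13, aligned to mm10 with STAR and counted with HTSeq 0.6.1p1. The annotation release was not given in the sources used here, nor was the strand setting. The deposited values are raw counts per gene, with 0 lines naming no gene. Of 54232 identifiers, 54165 matched GENCODE M21 (GRCm38), the source of names, positions, lengths and coding sequences.

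Counts were tested with edgeR 4.0.16 in R 4.3.3 (quasi-likelihood, TMM scaling, minimum count 10, minimum total 15, Benjamini-Hochberg adjustment over 14133 genes, threshold FDR 10%, no covariate), as Tributyrin over vehicle. SEs and 95% intervals are from that model. Single ratios were compared with two-sided exact permutation tests. TPM used the union of exons. The edgeR step was tested on simulated counts with known changes. At an FDR of 10% it recovered 15% of changes of 0.3 on the log2 scale, 53% of 0.5, 76% of 1 and 100% of 2. Alternatives were DESeq2 1.42.0, limma-voom 3.58.1, other scalings and filters, the replicate number as a block, each mouse left out, and, added after the data were seen, an atrial score as covariate and both mice 1 left out.

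Libraries held 20369746 to 32734485 counts, and limits for a count of 0 (3 counts, 0.0916 to 0.147 CPM per library) cover counting error only. No pair of libraries agreed within sampling noise. The labels name separate mice only by number, so p-values measure the spread between these samples. The 8 genes and all lists were chosen with earlier results of these data known. Genes named beyond the 8 were those of a list with an unadjusted p under 0.05, the 2 of highest TPM, those at 0 in every library, and the 2 most alike in profile. Other genes were chosen after their values were seen. Some genes of the lists, and a ratio that used such a gene, are not reported here.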

Additional observations from a re-analysis of the deposited data

How the results depend on the processing

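None of the 8 genes passed an FDR of 10% in the main test or in the 16 alternatives run, where the smallest adjusted p was 0.409 (*Agt* without Tributyrin mouse 2, edgeR). The direction held in 117 of 128 cases, which reuse the same 6 libraries and are not independent. Genes past an FDR of 10% were 0 in the main test, 167 with no filter on low counts, 11 with DESeq2, 5 without both mice 1 and 0 to 3 with single mice left out. Genes with an unadjusted p under 0.05 were 600 of 14133 tested in the main test (4.25%) and 1178 of 25581 with no filter (4.60%). They were 367 of 9700 at a mean CPM of at least 5 (3.78%) and 389 to 1360 with single mice left out (2.68% to 9.56%). The share with such a p was 1.80% with DESeq2, 2.99% with the atrial covariate and 3.53% without both mice 1. Of the 8 genes, 1 had such a p in the main test, 2 with no filter (*Ace* and *Agt*), 0 with DESeq2, the atrial covariate or without both mice 1, and 0 to 2 with single mice left out. Groups did not overlap for 1 of the 8, for 2 with library size alone, 4 without both mice 1, and 1 to 4 with single mice left out. Groups with fewer mice separate more easily, and the share over all genes was counted only in the main test (8.94%). The log2 fold change turned to -0.029 for *Enpep* and -0.066 for *Nr3c2* with library size alone, to 0.00894 for *Atp6ap2* and -0.0045 for *Nr3c2* with the atrial covariate, and to -0.11 for *Nr3c2* without both mice 1. With single mice left out, or both mice 1, it ranged from -0.082 to 0.22 for *Enpep*, -0.11 to 0.10 for *Nr3c2* and -0.20 to 0.035 for *Nr3c1*, turning for *Enpep* without vehicle mouse 2 (-0.035) or Tributyrin mouse 2 (-0.082), for *Nr3c1* without Tributyrin mouse 3 (0.035), and for *Nr3c2* without vehicle mouse 1 (-0.029), Tributyrin mouse 1 (-0.076) or Tributyrin mouse 2 (-0.010). The log2 difference of *Enpep* relative to pericyte markers ranged from -0.099 to 0.084, turning without vehicle mouse 1, Tributyrin mouse 1 (0.028) or Tributyrin mouse 3 (0.021). With the longest transcript as length, *Agt* was at 5.69 and *Hsd11b1* at 15.2 TPM. The causes were not tested.

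The labels name mice only by number, and the replicate numbers were not taken to pair them. Deviations of same-numbered mice correlated at 0.214 for mice 1, 0.0375 for mice 2 and 0.0147 for mice 3. Those of differently numbered mice correlated between -0.193 and 0.152, so only the value for mice 1 lay above that range. With the replicate block, 2 genes passed an FDR of 10% and 731 had an unadjusted p under 0.05 (5.17% of genes tested). Of the 8, 2 had such a p with the block (*Ace*, p 0.0236, and *Agtr1a*, p 0.0471, edgeR). No other call on the 8 genes moved with it.

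The intervals show what 3 mice a group can bound: from -0.32 to -0.012 for *Agtr1a* and from -0.020 to 0.68 for *Agt*, the gene with the fewest counts.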
